A study of Mus musculus with 4 samples.

Results

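Mitochondrial ribosomal proteins were followed in cultured primary hepatocytes of mice that lack Drp1 in the liver (Drp1LiKO) and of control mice, each untreated or given palmitate. Members were the genes whose name begins with Mrpl or Mrps followed by a digit, and 77 of 77 such genes on the array were measured, of 20619 measured genes in all. They were 48 genes named for the large subunit and 29 named for the small subunit, read by 119 probes. Each gene is represented by its brightest probe that stood well above background on at least 1 array. The choice used names and brightness and no difference between groups.

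There was 1 array for each of 4 groups, so the differences between groups have no replicate check, and their precision is limited by that number. All cells came from C57BL/6 mice and were harvested 24 h after seeding. The groups were Control without palmitate, Drp1LiKO without palmitate, and both genotypes again with 200 μM palmitate, a saturated fatty acid, called Control palmitate and Drp1LiKO palmitate. Drp1LiKO mice carry floxed Dnm1l alleles recombined by a Cre whose albumin promoter is active in hepatocytes, so other liver cells in the culture would keep the gene. The methods name floxed littermates, male, as controls. The labels call both controls wild-type, and the palmitate control also bears the name Drp1flox. They give no age and do not say whether both arrays of a genotype came from the same animal. By its label, the untreated control array was deposited in a further series too. Both untreated arrays were on slide 1 and both palmitate arrays on slide 2, so palmitate and slide cannot be told apart, whereas each genotype comparison lay within a slide.

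The mitochondrial ribosome translates the few messages that mitochondrial DNA encodes, all of them core subunits of the respiratory chain and the ATP synthase. Its RNA is made inside the organelle, but every one of its proteins is encoded in the nucleus, made in the cytosol and imported. The small subunit binds the message and reads the codons, and the large subunit forms the peptide bond and passes the chain to the inner membrane. Some of the proteins have a counterpart in bacterial ribosomes and others occur in mitochondria only. Drp1, the product of Dnm1l, divides mitochondria and is not part of the translation machinery.

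Levels are log2 processed intensities minus the 75th percentile of the same array, so 0 is that percentile and differences are relative to the bulk of transcripts. The 75th percentile lay at intensities from 424 to 542, and from 44.7% to 51.1% of probes were well above background. Repeat spots of a probe had a median SD of at most 0.04 (log2) within an array, a measure of spot noise that holds no biological spread. Dnm1l, the deleted gene, lay at 2.42 in Control and 1.07 in Drp1LiKO without palmitate, and at 2.43 and 1.01 with palmitate. The Dnm1l difference was −1.35 without and −1.42 with palmitate (log2), in the direction of the labels on both slides.

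Macrophage, endothelial and stellate cell markers and genes of cell division differed between the genotypes by more than the ribosomal proteins did. Summed linear levels of the 17 measured macrophage markers were 33.8 in Control, 65.8 in Drp1LiKO, 41.6 in Control palmitate and 64.2 in Drp1LiKO palmitate, with 14, 17, 11 and 16 markers well above background. The 12 endothelial markers summed to 2.41, 6.32, 2.42 and 4.54, with 9, 12, 8 and 10 well above background, and the 9 stellate cell markers summed to 45.2, 62.6, 46.5 and 59.3, with 5, 9, 4 and 8. Clec4f, Vsig4 and Fcgr1 of macrophages, Lyve1 and Tie1 of endothelium and Lrat, Col3a1, Rgs5 and Pdgfrb of stellate cells fell short of that flag with and without palmitate in Control, and all of them passed it on the untreated Drp1LiKO array. The 20 cell division genes summed to 48.6, 12.4, 50.9 and 14.9. The sums rest on the brightest markers and understate single genes, many of them read against an array where they were not well above background. The median difference (log2, Drp1LiKO minus Control) was 2.34 untreated and 1.72 with palmitate for the macrophage markers, 1.80 and 1.05 for the endothelial, 3.03 and 2.54 for the stellate cell and −1.90 and −1.75 for the cell division genes. These medians include markers that only 1 of the compared arrays held well above background. Averaged over both pairs, the median was 2.02 for macrophage, 1.01 for endothelial and 2.73 for stellate cell markers. Among those well above background on all arrays it was 1.81 over 11 macrophage, 1.15 over 7 endothelial and 1.80 over 4 stellate cell markers. The 12 hepatocyte markers summed to 1303, 1305, 1296 and 1331, and all but G6pc were well above background on all 4 arrays. Single hepatocyte markers differed in both directions, with medians of 0.22 and 0.28, from −0.66 (Cyp2e1) to 2.23 (Cyp3a11) untreated, and with Cyp3a11 and Tat past 1 in both pairs. Cholangiocyte markers summed lower in Drp1LiKO and lymphocyte markers to nearly the same in both genotypes. In bulk RNA, fewer cells of a type and less RNA per cell cannot be told apart, and the part of these shifts in the differences given here was not tested.

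The ribosomal proteins varied little over the 4 arrays. Of the 77 members, 76 were well above background on all 4 arrays, the exception being Mrpl35. The range over the 4 arrays was under 0.5 (log2) in 75 members, or 97.4%, against 50.8% of all genes and 61.5% of the 16613 genes that passed that filter on all arrays. The median range was 0.22 in the members, 0.40 in those 16613 genes, 0.20 in 79 cytosolic ribosomal protein genes and 0.21 in 76 nuclear-encoded respiratory chain subunits. The members are bright and the range of dim genes holds more noise, and the part of brightness in this contrast was not tested.

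In untreated cells most members lay slightly lower in Drp1LiKO. The median member difference was −0.07 (log2, Drp1LiKO minus Control), against −0.02 over 19878 genes tested, and 58 of 77 members were below 0 (75.3%), against 52.2% of all genes. With palmitate the median was −0.09 against −0.03 over 18892 genes, and 57 of 76 members were below 0, against 53.7%. Among genes above background on both arrays the medians were −0.04 and −0.05, and 54.7% and 57.1% were below 0. The SD among the 76 members well above background on all arrays was 0.18 in both pairs, against 0.58 and 0.50 among the 16613 genes. A lower median held under each of the 8 ways of scaling, background correction and probe choice tried, but its size did not: with each array set to its median in place of the 75th percentile, the member median was −0.26 untreated and −0.23 with palmitate, and that of all genes −0.20 and −0.17. Members below 0 then numbered 72 of 77 and 70 of 76, against 68.0% and 67.9% of all genes. Relative to all genes the members were lower by the same −0.05 and −0.06 as before. With quantile normalization 47 of 77 members were below 0 in untreated cells, and the medians of members and of all genes were both −0.03. With no filter on dim probes the median of all genes was −0.22 and −0.23, so that the members, at −0.07 and −0.09, lay above it by 0.15 and 0.14.

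Large shifts were few among the members. Of the 76 members well above background on both arrays, 0 differed by at least 1 (log2) in untreated cells, against 7.81% of genes held to the same filter. Genes above background on only 1 of the arrays bring the share of all genes to 14.4%, and among the members they add Mrpl35, whose measured difference passed 1 while its bound, given further on, did not. With palmitate 0 members differed by at least 1, against 5.56% of genes above background on both arrays and 11.5% of all genes. Members at least 0.5 higher in Drp1LiKO numbered 0 in both pairs, against 12.5% and 9.63% at that filter and 17.4% and 14.9% of all genes. Members at least 0.5 lower were Mrpl14 and, by its measured value, Mrpl35 in untreated cells, against 13.7%, and 0 with palmitate, against 10.2%. With both arrays above background Mrpl14 alone was left, against 11.7%, and 0 with palmitate, against 8.66%. These counts depended on the scaling. With each array set to its median, 10 members were at least 0.5 lower in untreated cells, against 22.0% of all genes, and 6 with palmitate, against 15.7%.

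The order of the members was much the same in both pairs of arrays, which share no array. Over the 76 members well above background throughout, the genotype differences with and without palmitate had a Pearson r of 0.81 and a Spearman rho of 0.76, given across genes as a description; over the 16613 genes r was also 0.81, so the likeness is no trait of the members. The median gap between the pairs was 0.07 for a member. Of the 76 members, 50 (65.8%) were lower in both pairs, against 45.4% of the 16613 genes, and 12 were higher in both, against 33.1%. These counts depended on the scaling. With quantile normalization 41 were lower and 17 higher, against 44.5% and 33.6% of genes. With normexp background correction they were 45 and 14, against 47.2% and 31.9%, and with median scaling 69 and 4, against 64.8% and 19.2%. A difference of at least 0.25 in both pairs, a limit chosen after the values were seen, was met by 9 members on the lower side (11.8%, against 16.0%) and by 2 on the higher side (2.63%, against 14.6%). With median scaling it was met by 27 on the lower side, against 33.0%, and by 0 on the higher side, against 9.16%.

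**Figure D1:**
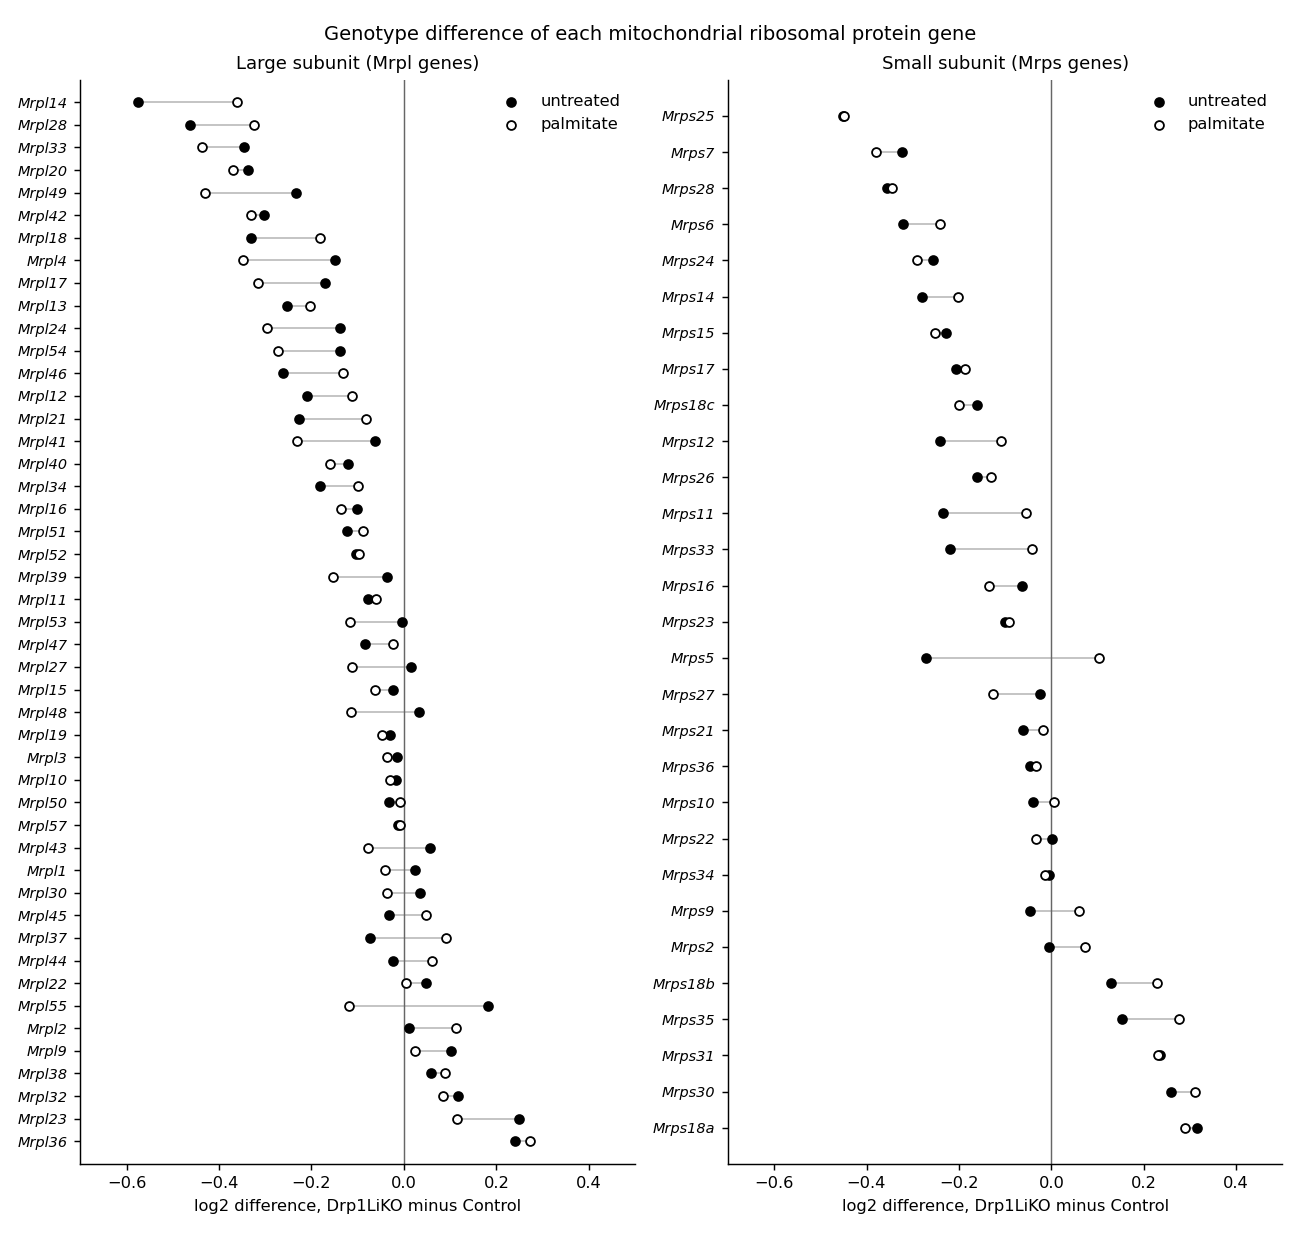
Log2 difference Drp1LiKO minus Control (x axis) for each of the 76 members well above background on all arrays, split by the subunit in the gene name and ordered by the mean of both pairs; filled circles are untreated and open circles palmitate cells, 1 array per group. Most circles lie between −0.3 and 0.1, Mrpl14 and Mrps25 stand at the low end and Mrps18a and Mrps30 at the high end, and the circles of a gene are mostly close together.

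Mrpl14 had the most negative difference among members measured on both arrays. It is the uL14 protein at the face of the large subunit that meets the small subunit, and its probe lies at chr17:45835317-45835376 (mm9, plus strand). Its level was 5.66 in Control, 5.09 in Drp1LiKO, 5.48 in Control palmitate and 5.11 in Drp1LiKO palmitate. Both Drp1LiKO arrays were below both control arrays, by −0.58 untreated and −0.36 with palmitate. Mrps25, a small-subunit protein found in mitochondria only, had the most even difference. Its probe lies at chr6:92124834-92124893 (mm9, minus strand), and its level was 4.62 in Control, 4.17 in Drp1LiKO, 4.60 in Control palmitate and 4.15 in Drp1LiKO palmitate. The Mrps25 difference was −0.45 in each pair, a linear ratio of 0.732.

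The other members lower by at least 0.25 in both pairs were spread over both subunits. Mrpl33, the small bL33 protein of the large subunit, was at 7.32 and 6.97 in Control and Drp1LiKO and at 7.35 and 6.91 with palmitate, differences of −0.35 and −0.44. Mrps7, the uS7 protein of the small subunit head, was at 5.15 and 4.83 and at 5.16 and 4.78, differences of −0.32 and −0.38. A further Mrps7 probe read −0.40 and −0.30, so both probes gave a lower value in both pairs. Mrpl28 (−0.46 and −0.32), Mrpl20 (−0.34 and −0.37), Mrpl42 (−0.30 and −0.33), Mrps28 (−0.36 and −0.34) and Mrps24, the uS3 protein at the site where the message enters (−0.26 and −0.29), made up the rest. Mrpl49, of the large subunit, differed more between the pairs, at −0.23 untreated and −0.43 with palmitate.

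The highest members in Drp1LiKO were a pair of genes whose names and places in the ribosome disagree. Mrps18a and Mrps30 are named for the small subunit, but structures of the mammalian mitochondrial ribosome place both proteins in the large subunit. Mrps18a, with its probe at chr17:46265584-46265643 (mm9, plus strand), was at 4.01 in Control, 4.33 in Drp1LiKO, 4.05 in Control palmitate and 4.34 in Drp1LiKO palmitate. Both Drp1LiKO arrays were above both control arrays, by 0.32 and 0.29, and a further Mrps18a probe, well above background on 3 of the arrays, read 0.44 and 0.32. Mrps30, with its probe at chr13:119169203-119169262 (mm9, minus strand), was at 3.38, 3.64, 3.30 and 3.61 in the same order, differences of 0.26 and 0.31. With median scaling these differences were smaller, at 0.13 and 0.14 for Mrps18a and 0.08 and 0.17 for Mrps30. Mrpl36, the small bL36 protein of the large subunit, followed with 0.24 and 0.27.

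Other members on the higher side were Mrps31 (0.23 in both pairs), Mrps35 (0.15 and 0.28) and Mrpl23, a protein of the polypeptide exit (0.25 and 0.11). Mrps18b, read by 3 bright probes, was higher on all of them, by 0.13, 0.10 and 0.14 untreated and by 0.23, 0.38 and 0.18 with palmitate. Its dimmest probe was not well above background on any array. For Mrps31 a further probe, above background on all arrays, read 0.10 untreated and −0.40 with palmitate, so the Mrps31 difference with palmitate depended on the probe.

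**Figure D2:**
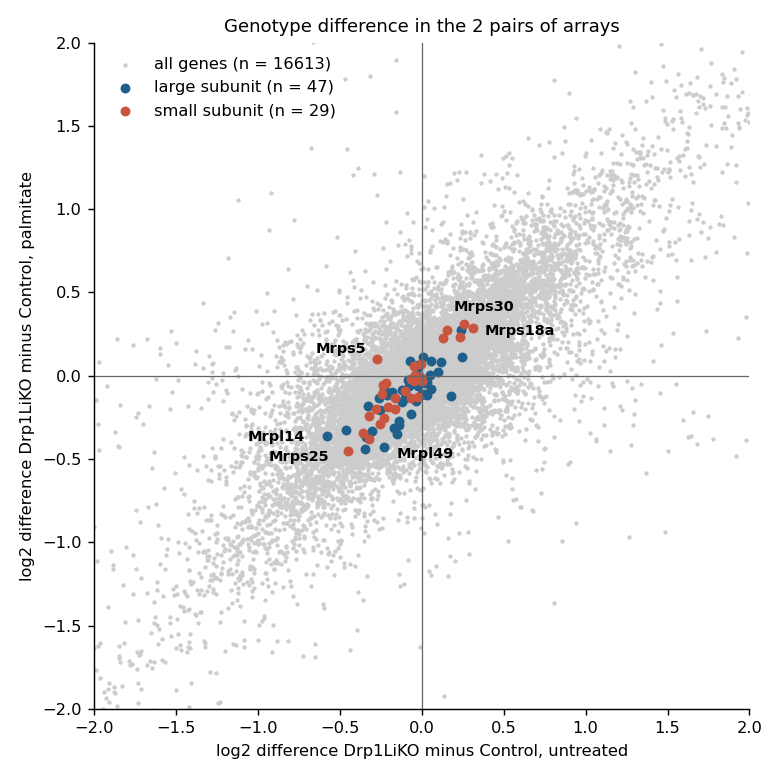
Log2 difference Drp1LiKO minus Control in untreated cells (x axis) against that in palmitate cells (y axis); grey points are those of the 16613 genes that fall within the axes, and coloured points the 47 large-subunit and 29 small-subunit members by name. Members lie along the same diagonal as all genes but near its centre, and Mrps5 lies off it with −0.27 untreated and 0.10 with palmitate.

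No member could be called over both conditions. In limma with a term for genotype and a term for palmitate, fitted on all 20619 genes with 1 residual degree of freedom, 0 members and 0% of all genes had an adjusted p under 0.05 (Benjamini-Hochberg), with a smallest member value of 0.145 for Mrps25. At an unadjusted p under 0.05 there were 9 members (11.7%), 8 of them lower in Drp1LiKO, against 26.0% of all genes. With median scaling there were 24 (31.2%), all lower, against 33.5%, and with normexp background correction 18 (23.4%), 14 of them lower, against 31.3%. With an intensity trend in the prior variance, limma called 16 members (20.8%), 13 of them lower, again against 26.0% of all genes, and Mrpl33 had the smallest adjusted p at 0.0024. When only probes well above background on all arrays entered limma, 1 member, Mrps25, was called with an adjusted p of 0.0445, against 15.6% of genes. The arrays of a genotype stand for a genotype with different treatments, not for repeat cultures. The p-values therefore rest on how far the genotype difference changed between the slides, where palmitate also differed, pooled with the variance of all genes. They measure no spread between cultures.

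The large and the small subunit differed by little. By gene name the median genotype difference was −0.07 in the large and −0.10 in the small subunit without palmitate, and −0.10 and −0.05 with palmitate, so the order of the subunits turned between the pairs. With Mrps18a and Mrps30 counted in the large subunit and Mrps36 in neither, the medians were −0.05 over 50 and −0.16 over 26 members untreated, and −0.09 and −0.10 with palmitate. The gap between subunits in untreated cells was thus 0.03 by name and 0.11 by structure (large minus small), and with palmitate it was −0.04 and 0.01. Mrps36, which was later found to belong to the oxoglutarate dehydrogenase complex, differed by −0.05 and −0.03.

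Members were classed by origin from the uniform names of ribosomal proteins. The 45 members with a bacterial counterpart had medians of −0.15 untreated and −0.10 with palmitate, and the 31 classed as mitochondria only had −0.03 and −0.09. In these names Mrps18c is bS18, whereas Mrps18a and Mrps18b, alike in gene name, have no bacterial name and are in the class of mitochondria only. The 16 small-subunit proteins with a bacterial counterpart were all below 0 in untreated cells on their representative probes, with a median of −0.23 and the lowest at −0.36. Also below 0 were 75.3% of all members, 52.2% of all genes and 75 of 79 cytosolic ribosomal protein genes. The sign depended on the probe in Mrps2 (−0.0049), Mrps9 (−0.05) and Mrps5 (−0.27). Their further probes above background on all arrays read 0.15, 0.05 and 1.09. With palmitate 12 of the 16 were below 0, against 57 of 76 members, with a median of −0.16. The 10 small-subunit proteins classed as mitochondria only had medians of −0.01 and −0.04, with the negative values of Mrps25 and the positive ones of Mrps31, Mrps35 and Mrps18b among them.

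Members were also grouped by site in the ribosome. All 5 members of the stalk and its base, where elongation factors dock, were lower in both pairs, against 65.8% of the 76 members. The differences were small: Mrpl12 by −0.21 and −0.11, Mrpl54 by −0.14 and −0.27, and Mrpl11 by −0.08 and −0.06. Mrpl53 was lower by −0.01 and −0.12, and Mrpl10 by −0.02 and −0.03. A further Mrpl10 probe read −0.04 and 0.06. The 7 members at the polypeptide exit had medians of −0.03 and 0.00, from −0.14 to 0.25 untreated and from −0.30 to 0.11 with palmitate. Mrpl24 was lowest there in both pairs and Mrpl23 highest, while Mrpl45, which anchors the ribosome to the inner membrane, read −0.03 and 0.05, Mrpl39 −0.04 and −0.15, Mrpl44 −0.02 and 0.06, Mrpl47 −0.08 and −0.02, and Mrpl22 0.05 and 0.00.

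Among the 5 members near the peptidyl transferase centre, where the bond is made, Mrpl4 differed by −0.15 and −0.35, Mrpl16 by −0.10 and −0.14, Mrpl27 by 0.02 and −0.11, Mrpl3 by −0.01 and −0.04, and Mrpl2 by 0.01 and 0.11. At the central protuberance, Mrpl46 (−0.26 and −0.13) and Mrpl40 (−0.12 and −0.16) were lower in both pairs, and Mrpl48 read 0.03 and −0.11. Mrpl38 (0.06 and 0.09) was higher in both on its representative probe, but its dimmest probe read −0.26 and −0.05. On the platform of the small subunit, Mrps11 (−0.23 and −0.05), Mrps18c (−0.16 and −0.20) and Mrps21 (−0.06 and −0.02) lay opposite to Mrps18b. At the decoding and message entry sites, Mrps12 (−0.24 and −0.11) and Mrps24 were lower in both pairs and Mrps5 was not. The stalk was the only one of these sites whose members all shared a sign in both pairs, at a size within spot noise for some of them. For Mrpl10 that sign depended on the probe.

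Mrps5 showed how much 1 probe can decide. It is the uS5 protein near the channel through which the message enters. Both of its probes that stood above background on all arrays are printed here because they read the same gene at different places and disagreed on 1 array. The brighter probe lies at chr2:127429365-127429424 and the further probe between chr2:127416514 and 127417605, a span longer than its 60 bases and so across an intron (mm9, plus strand, 5′ to 3′).
Mrps5 brighter probe: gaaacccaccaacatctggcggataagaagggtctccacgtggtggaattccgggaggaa
Mrps5 further probe: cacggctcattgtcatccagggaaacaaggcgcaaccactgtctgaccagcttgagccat
The brighter probe read 1.75 in Control, 1.48 in Drp1LiKO, 1.68 in Control palmitate and 1.78 in Drp1LiKO palmitate. The further probe read 0.85, 1.94, 1.01 and 0.91. On the untreated Drp1LiKO array the brighter probe was at its lowest and the further probe at its highest, so the genotype difference without palmitate was −0.27 on one and 1.09 on the other. With palmitate they read 0.10 and −0.10. Of 23 spots around the further probe, 3 held probes above background on the untreated Drp1LiKO array alone, against 2.75% of all probes, and 0 of 21 around the brighter probe did. The part of the surrounding spots in the high value was not tested.

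Mrpl35 was the dimmest member. It is the bL35 protein of the large subunit, and its only probe, at chr6:71763258-71763317 (mm9, minus strand), read −4.49 in Control, −6.33 in Drp1LiKO, −4.76 in Control palmitate and −4.99 in Drp1LiKO palmitate. Only the untreated Control array held it well above background, so the differences are bounds. Against the dimmest probe well above background on the other array, Mrpl35 was at least 1.71-fold higher in Control than in Drp1LiKO without palmitate (measured difference −1.84, limma adjusted p over both conditions 0.35) and at least 1.12-fold higher in Control than in Control palmitate (measured difference −0.27). Neither bound held with normexp background correction, where the palmitate difference in Control turned to 0.02. With palmitate neither genotype was well above background, and no fold is given. The untreated genotype difference was −0.44 after that correction, smaller in size than the bound of 0.78 (log2).

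**Figure D3:**
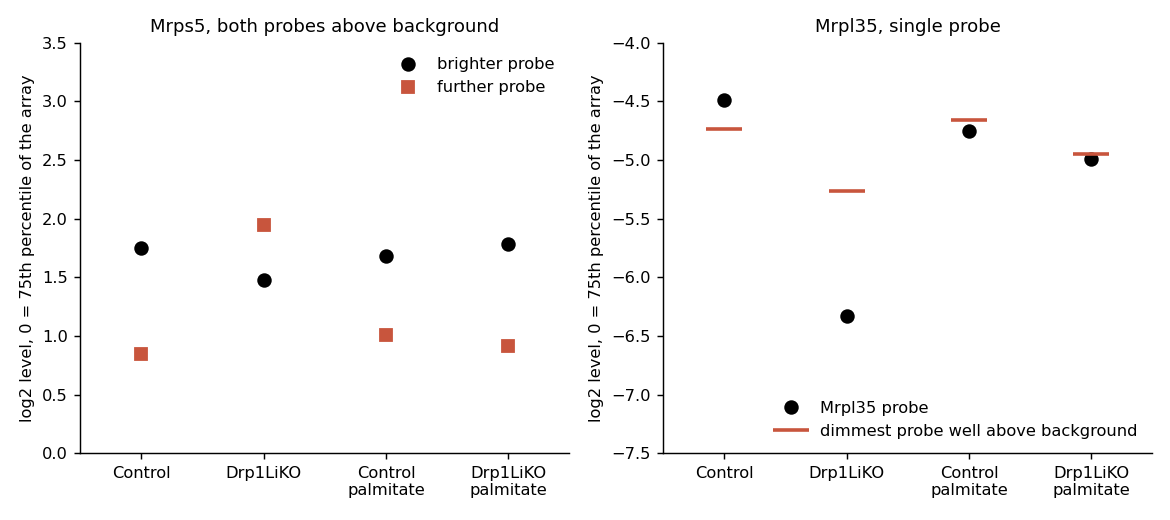
Log2 level on each of the 4 arrays (y axis, 0 is the 75th percentile of the array) of both Mrps5 probes (left) and of the Mrpl35 probe (right), where red bars mark the dimmest probe well above background on each array. The further Mrps5 probe is high on the untreated Drp1LiKO array alone, and the Mrpl35 probe passes the red bar on the untreated Control array alone.

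Further probes of a gene often differed from the representative probe by as much as the members' own differences. Of the 77 members, 30 had more than 1 probe, and 24 of them had more than 1 that was well above background on all arrays, giving 29 further probes. Of those 29, 19 lay within 0.2 of the representative probe for the untreated genotype difference and 25 for the palmitate one, with median gaps of 0.14 and 0.06, against member medians of −0.07 and −0.09. Signs disagreed between probes in several genes beside Mrps5 and Mrps31. In Mrpl13 the representative probe read −0.25 and −0.20 and the further one, a dim probe, 0.51 and 0.38. In Mrpl47 they read −0.08 and −0.02 against 0.19 and 0.29 on a dim probe. In Mrpl38 they read 0.06 and 0.09 against −0.26 and −0.05 on its dimmest probe. Mrpl1, Mrpl9, Mrpl21, Mrpl27 and Mrps2 were among the genes whose probes differed in sign without palmitate. In Mrpl44 the probes read −0.02 and −0.34 untreated, and in Mrps23 −0.10 and −0.38, whereas with palmitate they were close, at 0.06 and 0.05 and at −0.09 and −0.11.

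Member levels differed little between the palmitate and the untreated arrays. The median difference, palmitate minus untreated, was 0.00 in Control and −0.01 in Drp1LiKO, against 0.01 and 0.00 over all genes, with SDs of 0.09 and 0.10 over the 76 members, against 0.28 and 0.34 over the 16613 genes. Members below 0 were 38 of 77 in Control, against 48.4% of all genes, and 40 of 76 in Drp1LiKO, against 49.3%. With median scaling 58 of 77 were below 0 in Control, against 59.6% of all genes. Differences of at least 1 were found in 0 members in either genotype, against 5.70% of all genes in Control and 7.03% in Drp1LiKO. Members at least 0.5 higher were 0, against 7.16% and 10.1%, and members at least 0.5 lower were 0, against 5.65% and 7.54%. Among genes above background on both arrays, 1.105% in Control and 2.42% in Drp1LiKO differed by at least 1. At least 0.5 higher were 5.38% and 8.04% of these genes, and at least 0.5 lower 1.65% and 3.84%. The subunit medians by name were 0.01 (large) and −0.02 (small) in Control and −0.02 and 0.01 in Drp1LiKO.

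The largest positive differences with palmitate in Control were those of Mrpl9 (0.22), Mrpl43 (0.18), Mrps16 (0.17), Mrpl27 (0.16) and Mrps2 (0.14), and the most negative those of Mrps12 (−0.23), Mrpl10 (−0.20), Mrpl14 (−0.19), Mrpl57 (−0.17) and Mrps11 (−0.14). In Drp1LiKO the largest were those of Mrps5 (0.30), Mrpl18 (0.23), Mrps2 (0.22), Mrps33 (0.18) and Mrpl9 (0.14), and the most negative those of Mrpl10 (−0.21), Mrpl55 (−0.19), Mrpl49 (−0.18), Mrpl57 (−0.17) and Mrpl4 (−0.15). Mrpl9 and Mrps2 were thus among the highest and Mrpl10 and Mrpl57 among the lowest in both genotypes. Mrpl10, a protein of the stalk base, was at 2.31 in Control, 2.11 in Control palmitate, 2.29 in Drp1LiKO and 2.07 in Drp1LiKO palmitate, and its further probe read −0.24 and −0.14. For Mrpl9 a further probe read −0.01 in Control and 0.29 in Drp1LiKO, so its value in Control depended on the probe. Over the 76 members, Pearson r between the palmitate differences of the genotypes was 0.34 and Spearman rho 0.31, against 0.43 and 0.45 over the 16613 genes, as a description across genes.

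**Figure D4:**
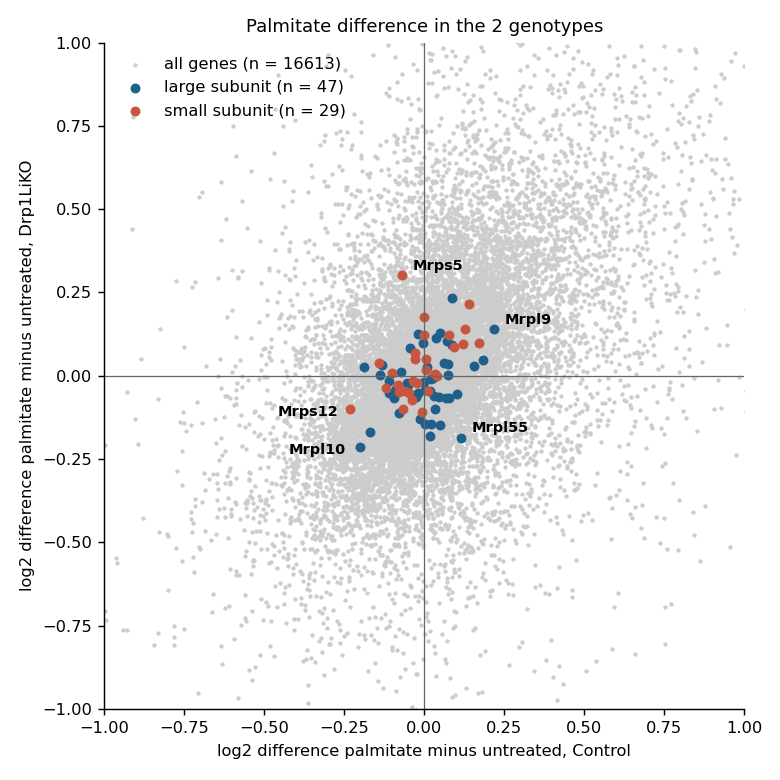
Log2 difference palmitate minus untreated in Control (x axis) against that in Drp1LiKO (y axis), with axes cut at 1 in either direction; grey points are genes well above background on all arrays and coloured points the 47 large-subunit and 29 small-subunit members by name. All 76 members lie between −0.23 and 0.30 on both axes, and Mrps5, Mrpl9, Mrpl10, Mrpl55 and Mrps12 lie at the edges of the cloud.

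The machinery around the ribosome gave a mixed picture. The 6 measured mitoribosome proteins with other names were all lower in Drp1LiKO in both pairs: Dap3, a GTP-binding protein of the small subunit, by −0.20 and −0.15, Ptcd3 by −0.22 and −0.03, Chchd1 by −0.08 and −0.10, Aurkaip1 by −0.12 and −0.19, Gadd45gip1 by −0.12 and −0.19, and Ict1, a release factor built into the large subunit, by −0.04 and −0.19. Their medians were −0.12 and −0.17. Also lower in both pairs were 65.8% of the 76 members and 45.4% of the 16613 genes. The same held for 84.2% of the nuclear-encoded respiratory chain subunits and 94.9% of the cytosolic ribosomal protein genes. Of 19 mitochondrial translation factors 8 were below 0 untreated and 11 with palmitate, with medians of 0.04 and −0.04. The 17 mitochondrial tRNA synthetases had medians of −0.10 and −0.12, with 10 and 15 below 0, and the 23 assembly factors 0.02 and 0.04, with 10 and 9 below 0. In these lists 0 genes differed by at least 1 in a genotype comparison, against 14.4% of all genes untreated and 11.5% with palmitate. In limma 0 of their genes passed an adjusted p of 0.05, as over the whole array. The 14 regulators of mitochondrial transcription and biogenesis had medians of 0.03 untreated and 0.01 with palmitate. In both pairs 2 of them were at least 0.5 higher and 1 at least 0.5 lower. Of the 14, 1 differed by at least 1, against the same 14.4% and 11.5% of all genes. It was Ppargc1a, the coactivator PGC-1α, at −1.86 in Control and −0.65 in Drp1LiKO and at −1.79 and −0.52 with palmitate. Ppargc1a was thus 1.21 and 1.27 higher in Drp1LiKO.

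The messages that the mitochondrial ribosome reads differed by more than those of its own proteins. Of 11 probes named for transcripts of mitochondrial DNA, 9 were below 0 in each pair, against 52.2% and 53.7% of all genes, and 8 in both pairs. Their medians were −0.50 untreated and −0.41 with palmitate. At least 0.5 lower were 5 in each pair, against 13.7% and 10.2% of all genes, and 4 in both pairs. ND5 was at 4.95 in Control, 4.45 in Drp1LiKO, 5.29 in Control palmitate and 4.20 in Drp1LiKO palmitate, differences of −0.50 and −1.09. ND4L differed by −0.53 and −1.05, CYTB by −0.78 and −0.87, ND4 by −0.72 and −0.90 and COX1 by −0.66 and −0.84. COX2 (−0.28 and −0.17), ATP8 (−0.37 and −0.39) and ND1 (−0.22 and −0.29) differed less, ND2 read 0.04 and −0.41, and ND6 −0.62 and 0.33. ND3 read 0.35 and 0.21, but the file places its probe on chromosome 1, where the mouse genome holds a nuclear copy of mitochondrial sequence.

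The families nearest in kind lay a little lower than the members and varied less among themselves. Of 79 cytosolic ribosomal protein genes, 75 were below 0 untreated and 77 with palmitate, with medians of −0.14 and −0.13 and SDs of 0.11 and 0.09. Of 76 nuclear-encoded respiratory chain subunits, 68 were below 0 in each pair, with medians of −0.11 and −0.14. A small negative median was therefore shared by 3 families of bright housekeeping genes and was not a trait of the mitochondrial ribosome alone.

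**Figure D5:**
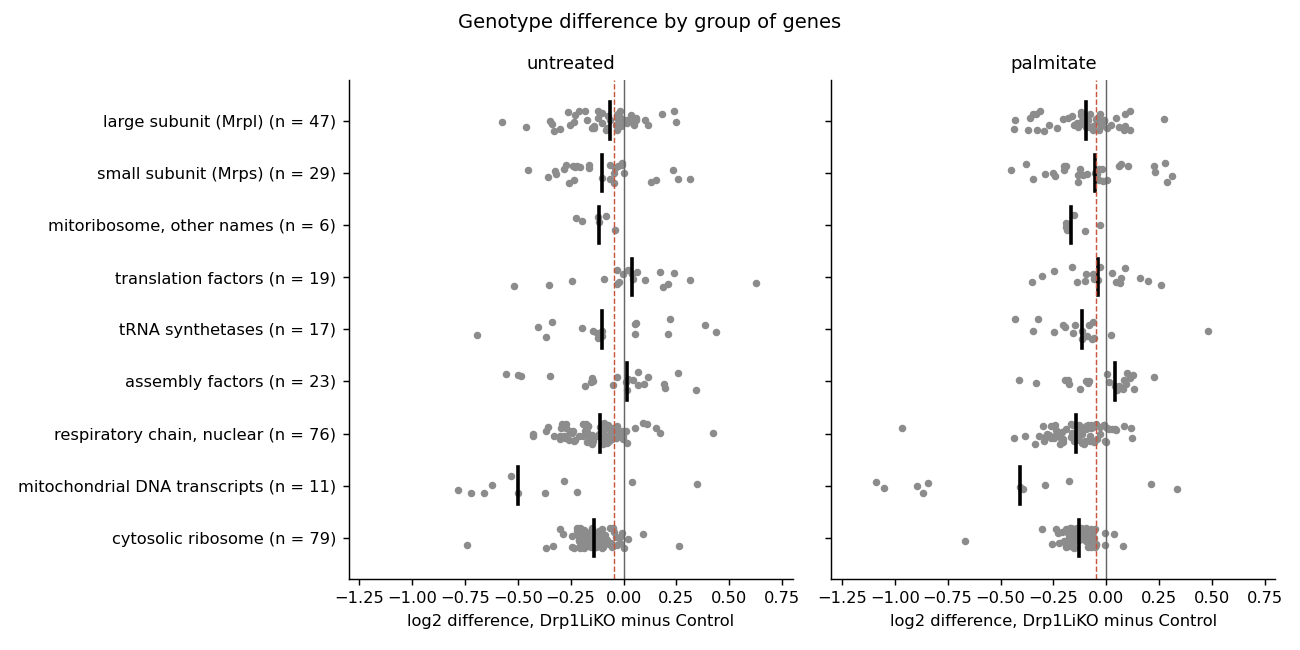
Log2 difference Drp1LiKO minus Control of single genes (grey points, spread vertically for sight) in untreated (left) and palmitate cells (right), for genes well above background on all arrays; thick bars are group medians, the dashed line is the median of all such genes and the solid line is 0. Both subunits, the respiratory chain and the cytosolic ribosome sit close to the dashed line, with medians from −0.14 to −0.05, and the mitochondrial DNA transcripts sit at −0.50 and −0.41.

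Member genes were spread over 17 chromosomes, with at most 10 on 1 of them, and shared features of their promoters. Promoter sequence (RefSeq starts, GRCm38.p6, 250 bases before to 50 after the start) was matched by symbol for 68 of 77 members, all but Mrpl13, Mrpl15, Mrpl19, Mrpl38, Mrpl4, Mrpl54, Mrps28, Mrps34 and Mrps35. Letters bound by ETS factors such as GABP (CCGGAAG, either strand) were found in 25 of 68 members (36.8%), against 12.9% of 17492 protein-coding genes. The YY1 letters AAGATGGC were found in 12 (17.6% against 3.57%) and the NRF1 letters GCGCATGC in 8 (11.8% against 3.94%). The Sp1 letters GGGCGG were found in 34 (50.0% against 49.2%) and the E-box CACGTG in 5 (7.35% against 8.91%). TATAAA in the 50 bases before the start, on the strand of the gene, was found in 0 members, against 3.81%. None of these motifs contains another, and a match describes the sequence and is not a shown binding site. Of the 8 members lower by at least 0.25 in both pairs that have a promoter, 1 held the ETS letters, 3 the YY1 letters and 1 the NRF1 letters.

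Members shared their promoter with another gene more often than most genes do. A start site of a protein-coding gene on the other strand lay within 1000 bases upstream of 24 of 68 members (35.3%), against 8.48% of protein-coding genes. Mrpl46 of the large subunit and Mrps11 of the small subunit start 42 bases apart, facing away from each other, and both were lower in Drp1LiKO, Mrpl46 by −0.26 and −0.13 and Mrps11 by −0.23 and −0.05. Partners did not always differ in the same way. Mrps7 (−0.32 and −0.38) starts 224 bases from Gga3, which was higher by 0.30 and 0.35, and Mrpl57 (−0.01 and −0.01) starts 76 bases from Ska3, a gene of the mitotic spindle, which was lower by −1.37 and −1.48. Mrpl14 starts 131 bases from Tmem63b, which read −0.56 untreated, close to Mrpl14, but −0.03 with palmitate.

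Promoter stretches are printed to show a lower gene, a higher gene and a shared start, each 5′ to 3′ on the strand of the named gene and ending just before its start, with any of the letters above in capitals. Mrps25, lower by the same amount in both pairs, is shown over chr6:92184024-92184273 (minus strand), Mrps18a, the highest in untreated cells, over chr17:46110754-46111003 (plus strand), and the stretch between Mrpl46 and Mrps11 over chr7:78783090-78783130 (minus strand), all on GRCm38.p6.
Mrps25: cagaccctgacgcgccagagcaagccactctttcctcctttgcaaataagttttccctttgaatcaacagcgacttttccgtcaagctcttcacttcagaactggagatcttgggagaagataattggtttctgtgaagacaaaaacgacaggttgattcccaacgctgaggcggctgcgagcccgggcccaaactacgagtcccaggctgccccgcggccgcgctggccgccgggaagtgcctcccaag
Mrps18a: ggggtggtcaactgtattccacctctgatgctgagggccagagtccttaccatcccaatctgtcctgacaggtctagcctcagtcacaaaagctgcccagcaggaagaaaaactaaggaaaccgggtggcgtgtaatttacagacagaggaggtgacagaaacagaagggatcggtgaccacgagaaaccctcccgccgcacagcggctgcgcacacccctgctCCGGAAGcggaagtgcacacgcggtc
Mrpl46 to Mrps11: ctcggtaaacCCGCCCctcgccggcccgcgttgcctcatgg
The Mrps25 stretch holds none of the letters, Mrps18a holds the ETS letters beginning at position −26 from the start, and the shared stretch holds the Sp1 letters beginning at position −31 from the start of Mrpl46.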

How the data were processed

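The authors labelled RNA of each culture with Cy3 by a low-input kit, hybridised it to a one-colour Agilent mouse array of 62976 spots, and deposited 1 scanner table per array with intensity values on a linear scale. Per the file headers these were written by Feature Extraction 10.7.1.1, whereas the submitters' processing notes name 9.5.1.1. Labels and methods name different RNA extraction kits. A value table that the authors deposited beside them holds intensity values in 4 columns with the same sorted values, as quantile normalization gives. From the scanner tables, log2 processed signal minus each array's 75th percentile was taken over non-control spots, outlier spots were dropped, saturated spots (0 found) would have been kept, and repeat spots averaged. A gene entered a comparison if 1 or both of its arrays had the probe well above background. Differences between single arrays have no test. Genotype over both conditions was fitted in limma 3.58.1 (R 4.3.3) and checked on simulated data. The change added there was larger than the genotype difference of any member on its representative probe. Whether the fit can call changes as small as those of most members was not checked. Members, gene lists and families were chosen with earlier results of these data known, the families after the files were seen. Members named are the 5 largest rises and falls per comparison, those at a listed site, any past 1 (log2), Mrps30, Mrps18a and Mrps36. Others were named after their values were seen. Of the lists fixed for other cell types, 4 cholangiocyte markers summed to 60.5, 41.8, 57.1 and 43.6, 5 lymphocyte markers to 2.78, 2.63, 3.35 and 3.14, and 3 neutrophil markers to 1.37, 1.42, 1.59 and 2.01 (Control, Drp1LiKO, Control palmitate, Drp1LiKO palmitate). Probe positions are on mm9 as in the files. Promoter positions are on GRCm38.p6.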

Additional observations from a re-analysis of the deposited data

Results flagged for a closer look

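Mrpl55, a large-subunit protein found in mitochondria only, differed in opposite directions with palmitate in the 2 genotypes, the only one of 76 members to do so by at least 0.1 (log2) in each. Its level was 4.00 in Control and 4.12 in Control palmitate, a difference of 0.11, and 4.18 in Drp1LiKO and 4.00 in Drp1LiKO palmitate, a difference of −0.19. The gap between those responses was −0.30, and with 1 array per group it was not tested.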

How the results depend on the processing

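Of 97 alternative values for the comparisons, 87 stayed within spot noise of the reported value or within 1.5 times the count. The spot noise limit was 0.0536 (log2), close in size to the genotype medians of −0.07 and −0.09 and larger than the subunit gaps by name. A median could thus lose much of its size and still be counted, as with quantile normalization, −0.03 in place of −0.07 untreated. The member median for genotype kept its sign under 14 of 14 alternatives, and the gap between subunits under 15 of 16. The member median for palmitate in Control, near 0, lay on either side of it, from −0.054 to 0.0046. With median scaling the member median was −0.26 for genotype in untreated cells, −0.23 with palmitate and −0.054 for palmitate in Control, and members at least 0.5 lower numbered 10 and 6 in place of 2 and 0. Members past 1 (log2) in untreated cells numbered 0 after normexp background correction and 0 where both arrays had to be above background, and 1 (Mrpl35) for palmitate in Drp1LiKO with no filter on dim probes. With subunits by structure, large minus small was 0.11 untreated and 0.012 with palmitate. limma called 16 members with an intensity trend and 1 on probes above background on all arrays. With the mean of all probes Mrps5 turned to 0.41 for genotype in untreated cells and to −0.36 for palmitate in Drp1LiKO. The cause was not tested, other than that Mrpl35 and the further Mrps5 probe carry those values by construction. No paired analysis was possible because each group has 1 array, so no replicate numbers pair arrays. The palmitate term in limma acts as a block for slide, and without it 0 members were called. Without it 13 members (16.9%) had an unadjusted p under 0.05, against 24.1% of all genes, in place of 9 (11.7%) against 26.0%. Leaving out an array was not possible for the same reason. The number of arrays, and for Mrpl35 the signal over background, limit these results.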
